A study of Neurospora crassa with 4 samples.

Results

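The 100 genes described here are those with the highest mean level in control cultures of the filamentous fungus *Neurospora crassa*, out of 7793 genes in the deposited table. They were chosen by the mean of control replicates 1 and 2 alone. The control values are also one side of every comparison below, so a control value that happened to be high favours a difference towards lower levels in the mutant, and the control levels, shares and ranks are a description with no test.

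The study asked how nutrients and mRNA 3′ end processing bear on the circadian clock, and it compared a ΔCFIm double mutant with a control strain by 3′ End Sequencing. The ΔCFIm strain carried hphR in place of *cpsf5* (NCU09014) and of *cpsf6* (NCU02152), together with the *csr-1*::cbox-luciferase::barR reporter, and was measured in 2 libraries. The control strain carried the same reporter at *csr-1* and was labelled MAT A, and it was also measured in 2 libraries. Both strains were grown from conidia on cellophane over solid Vogel's medium that held glucose at 0.25% and arginine at 0.17% (w/v). They were harvested after 72 hours of constant light at 25°C. The study calls this a high nutrient medium and expects older tissue to pass to low nutrients before that time. The study's text calls the replicates biological duplicates grown on plates, and p-values measure the spread between these plates of 1 strain per genotype.

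*Neurospora* grows as a mat of hyphae and, at an air surface and in light, raises aerial hyphae that bud off orange asexual spores called conidia. Conidia are coated by a layer of the hydrophobin EAS, and many genes of conidiation are also under the circadian clock and light. CFIm is a complex that binds nascent transcripts near their 3′ end and guides where they are cleaved and given a poly(A) tail. In 3′ End Sequencing a transcript is read from its poly(A) end, so levels were not divided by gene length. The study reports altered poly(A) sites in ΔCFIm, and some poly(A) signal outside the annotated 3′ UTR. A moved site could therefore change the reads counted for a gene, and this was not tested.

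In each library, 5572762 to 6053869 reads fell on genes, and the authors scaled the counts to equal totals, so that 1 read is worth 0.967 to 1.05 normalized counts. The targeted genes were low where the labels place the deletions, though reads remained on *cpsf6*. *cpsf5* stood at 2.96 and 0 normalized counts in the ΔCFIm libraries, against 214 and 192 in the control libraries, and *cpsf6* had 25.7 and 26.0 (26 reads in each library, above the floor of 3 reads) in ΔCFIm, against 141 and 160 in control. Reads on *csr-1*, the reporter site, were 0 in all 4 libraries, which allows up to 3 reads in each. The mating type gene *matA-1* had 0 reads in both ΔCFIm libraries, against 145 and 166 in the control libraries, so that reads of this gene separated the strains beside the deletions, and these cannot be told apart in any difference between genotypes. Of the genes listed for asexual development, *eas*, *con-6*, *con-8*, *con-10*, *ccg-1* and *al-1* are among the 100 genes. Below the limit, *fl* had 3013 and 3770 normalized counts in ΔCFIm, against 2845 and 3260 in control. *ccg-6* had 5200 and 4278, against 5725 and 6378, *al-2* had 5253 and 4868, against 4961 and 4994, and *al-3* had 2382 and 1843, against 2982 and 2317. The listed *ccg-4* had 0.988 and 0 normalized counts in ΔCFIm, against 57.8 and 99.6 in control. It was nearly absent where *matA-1* had 0 reads, and is not read here as a sign of conidiation. The hyphal genes *act* and *Bml* had overlapping libraries. The sexual development gene *asd-1* had 181 to 232 normalized counts over the 4 libraries. As the libraries are of whole cultures, fewer cells of a type and less RNA per cell cannot be told apart.

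The 100 genes held 36.3% and 38.3% of all normalized counts in ΔCFIm replicates 1 and 2, against 38.6% and 38.8% in control replicates 1 and 2. The 95% Wilson intervals of these shares were 36.26% to 36.34% and 38.22% to 38.30% in ΔCFIm, against 38.59% to 38.67% and 38.73% to 38.81% in control, and they cover counting error only. Thus ΔCFIm replicate 1 stood below the other 3 libraries. The mean share was 37.3% ± 1.39 in ΔCFIm and 38.7% ± 0.102 in control (SD, n = 2 each). The difference of -1.42 percentage points gave an exact two-sided permutation p of 0.333, the smallest that 2 libraries against 2 can give. This test could therefore not reach 0.05 whatever the values. Choosing the genes by control level also favours a lower share in ΔCFIm. The size of the difference rests on ΔCFIm replicate 1, as it was -0.436 without that library and -2.40 without ΔCFIm replicate 2. With the 100 genes chosen by the mean of all 4 libraries it was -0.552, and by the ΔCFIm mean -0.249.

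The total was shared very unequally within the 100 genes. The single gene *eas* held 9.88% ± 0.800 of the ΔCFIm total and 9.80% ± 0.257 of the control total (SD, n = 2 each). The 10 highest genes held 17.4% and 18.4% of the ΔCFIm libraries, against 18.5% and 18.4% of the control libraries, and the 50 highest held 28.1% and 29.9% of the ΔCFIm libraries, against 30.5% and 30.2% of the control libraries. Taken as shares of the 100 genes' own total, the 10 highest held 47.8% and 48.2% in ΔCFIm, against 47.8% and 47.4% in control, and the 50 lowest held 22.5% and 21.8% in ΔCFIm, against 21.1% and 22.2% in control. The part of *eas* in the 100 genes' total was 28.8% and 24.3% in ΔCFIm, against 24.9% and 25.7% in control, so that it varied more between the ΔCFIm libraries than between the control libraries. Counting each library's own highest genes, 242 and 209 genes made up 50% of the total in ΔCFIm replicates 1 and 2, against 220 and 213 in control replicates 1 and 2.

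**Figure D1:**
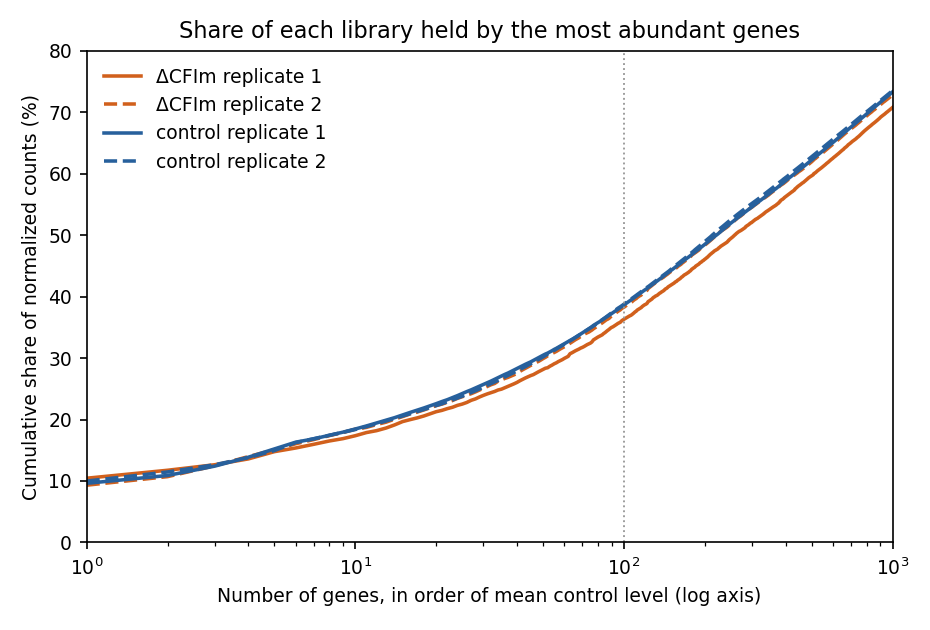
Cumulative share of all normalized counts (percent, vertical axis) against the number of genes taken in order of mean control level (logarithmic horizontal axis), with 1 line per library and a dotted line at 100 genes. At 100 genes ΔCFIm replicate 1 is at 36.3% and the other 3 libraries lie between 38.3% and 38.8%.

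Only 6 of the 100 genes had a mean control share over 1%, and a gap separated them from the rest. The lowest of the 6 had a mean of 70006 normalized counts in control and the next gene had 34254. The highest gene had 7.11 times the control level of the gene after it and 72.8 times that of the lowest of the 100. The 8 highest genes had the same order by mean level in ΔCFIm as in control, and 18 of the 20 highest in control were also among the 20 highest in ΔCFIm.

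The highest gene was *eas* (NCU08457), which encodes the hydrophobin of the spore coat. Its level was 611475 and 545275 normalized counts in ΔCFIm replicates 1 and 2, against 562943 and 584252 in control replicates 1 and 2. The 2 ΔCFIm libraries thus lay on either side of both control libraries, and the limma log2 fold change was 0.01 with a 95% interval of -0.71 to 0.73. The second gene, NCU16635, had 75726 and 81286 normalized counts in ΔCFIm, against 74540 and 86739 in control. It was the only one of the 100 with no match in the RefSeq annotation, and no symbol or product was found for it.

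The conidiation gene *con-10* (NCU07325) came next, with 52848 and 103957 normalized counts in ΔCFIm, against 89366 and 69319 in control. Its ΔCFIm libraries held both the lowest and the highest of the 4 values. The anchored cell wall protein gene *acw-5* (NCU07776) had 55513 and 86800 in ΔCFIm, against 84847 and 67027 in control, the same arrangement of libraries. The translation elongation factor gene *tef-1* (NCU02003) had 69002 and 65439 in ΔCFIm, against 78158 and 67771 in control, and these groups overlapped. The sixth, *con-8* (NCU09235), another conidiation gene, had 34801 and 57359 in ΔCFIm, against 64873 and 75140 in control, so that both ΔCFIm libraries were below both control libraries.

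The glucose-repressible gene *ccg-1* (NCU03753) and the conidiation gene *con-6* (NCU08769) followed. *ccg-1* had 35112 and 39361 normalized counts in ΔCFIm, against 31528 and 36979 in control, and *con-6* had 31517 and 37593 in ΔCFIm, against 33410 and 31589 in control. The groups overlapped for both. The remaining genes of the 20 highest were *stk-39*, *cot-3* (translation elongation factor 2, as its product line reads), *rhd*, the anchored cell wall gene *acw-6*, the ribosomal protein genes NCU08964 (L10), NCU00971 (S12) and *ubi::crp-6*, and NCU06603, NCU09734, NCU05143, NCU00673 and NCU09089, which have no symbol and no informative product. Over these 20 genes the log2 fold change ran between -0.64 (*con-8*) and 0.24 (NCU00673), with 8 above 0 and 12 below. Among all genes tested, 3400 were above 0 and 3549 below.

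**Figure D2:**
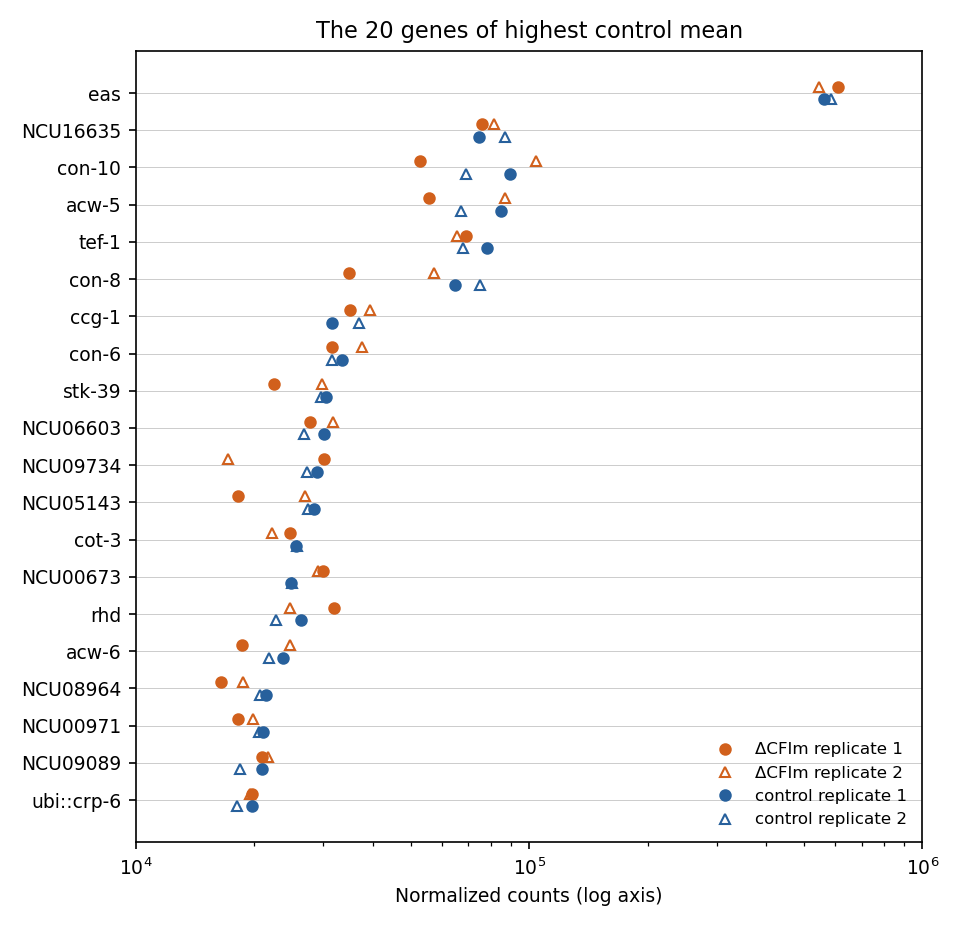
Normalized counts (logarithmic horizontal axis) of the 20 genes of highest control mean, from the highest at the top, with 1 point per library and the ΔCFIm libraries drawn above the control libraries of each gene. *eas* lies apart at 545275 to 611475, and *con-10* shows the ΔCFIm libraries at 52848 and 103957 on either side of the control libraries.

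Of the 100 genes, 99 matched the RefSeq annotation, 41 had a gene symbol, 32 had a product in the tables used, and 38 had neither or only a hypothetical protein line. Sorted by symbol and product, the largest share belonged to 7 clock-controlled and conidiation genes, which held 13.6% and 13.8% of all counts in ΔCFIm, against 13.7% and 13.9% in control. Without *eas*, the other 6 held 3.15% and 4.47% in ΔCFIm, against 4.12% and 3.95% in control, with the ΔCFIm libraries on either side. *ccg-15* (NCU08936), a clock-controlled gene, had 10532 and 11421 normalized counts in ΔCFIm, against 10168 and 10706 in control. The table holds 14 genes of this kind in all, of which 0 were higher and 1 was lower past the limma threshold, and that 1 was not among the 100. Over all genes tested, 8.0% passed, 4.62% higher and 3.38% lower.

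Ribosomal protein genes were the largest annotated group by number. By symbol and product they were 27 of the 100, out of 49 found in the table, so others may be missed. They held 5.39% and 5.94% of all counts in ΔCFIm, against 5.94% and 6.12% in control. The mean was 5.67% ± 0.385 in ΔCFIm and 6.03% ± 0.127 in control (SD, n = 2 each). The exact permutation p was 0.333, the smallest possible here, so this test cannot decide. Their mean control levels lay within 7906 to 21024 normalized counts, a narrow range beside that of the conidiation genes. The highest was NCU08964 (60S ribosomal protein L10), with 16446 and 18709 in ΔCFIm, against 21383 and 20665 in control, and the groups did not overlap. NCU00971 (ribosomal protein S12) had 18189 and 19886 in ΔCFIm, against 21046 and 20634 in control. The fusion gene *ubi::crp-6* (NCU04553), which encodes ubiquitin joined to a ribosomal protein, had 19792 and 19486 in ΔCFIm, against 19760 and 18086 in control. Of the 27 genes, 8 had a log2 fold change above 0 and 19 below, with a median of -0.04. Over all genes tested, 3400 were above 0 and 3549 below, with a median of -0.01. Libraries did not overlap for 12 of the 27, of which 2 were higher and 10 lower in ΔCFIm, where 52.4% of all genes tested did not overlap, 25.9% higher and 26.5% lower. Over the 49 genes of this list in the table, 0 passed the limma threshold in either direction and the median was -0.13.

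Other machinery of growth took smaller shares. The 2 translation factors, *tef-1* and *cot-3*, held 1.60% and 1.50% in ΔCFIm, against 1.77% and 1.60% in control. *cot-3* (NCU07700) had 24614 and 22237 normalized counts in ΔCFIm, against 25596 and 25751 in control, and these did not overlap. The glycolytic genes *gpd-1* (NCU01528, glyceraldehyde 3-phosphate dehydrogenase) and *fba* (NCU07807, fructose-bisphosphate aldolase) held 0.558% and 0.470% in ΔCFIm, against 0.484% and 0.516% in control. The shares of ΔCFIm and control libraries overlapped for both lists. *gpd-1* had 18474 and 17621 normalized counts in ΔCFIm, against 16824 and 17883 in control, and *fba* had 14180 and 9901 in ΔCFIm, against 11483 and 12325 in control. The libraries of the genotypes overlapped for both genes.

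Histone genes gave 4 of the 100, with 0.741% and 0.574% of counts in ΔCFIm, against 0.722% and 0.710% in control. *hH2B* (NCU02435) had 12669 and 9220 normalized counts in ΔCFIm, against 13398 and 11738 in control. *hH4-1* (NCU01634) had 9502 and 7343 in ΔCFIm, against 9409 and 10687 in control. *hH2A* (NCU02437) had 9182 and 6653 in ΔCFIm, against 9894 and 10079 in control. In all 3 the lowest value was ΔCFIm replicate 2, and the log2 fold changes of the list ran from -0.35 (*hH2A*) to 0.26 (*hH3*).

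For energy and protein folding, the ADP/ATP carrier gene *aac* (NCU09477) had 11236 and 9437 normalized counts in ΔCFIm, against 8242 and 9899 in control. The gene *tca-3* (NCU02366), named for the tricarboxylic acid cycle, had 12442 and 10506 in ΔCFIm, against 7953 and 7885 in control. Only *tca-3* had libraries that did not overlap. The chaperone gene *hsp70-1* (NCU09602) had 8948 and 7861 in ΔCFIm, against 8187 and 9761 in control. Of 82 genes of the mitochondrial energy list tested over the table, 9 were higher and 0 lower in ΔCFIm past the threshold, none of them among the 100, beside 4.62% higher and 3.38% lower of all genes tested, and the list's median was 0.20.

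Cell surface and secreted proteins gave 6 genes, with 2.28% and 2.85% of counts in ΔCFIm, against 2.75% and 2.44% in control. *acw-6* (NCU03530) had 18672 and 24670 normalized counts in ΔCFIm, against 23733 and 21867 in control. *gel-3* (NCU08909), a beta-glucanosyltransferase gene that remodels the wall polymer glucan, had 14013 and 22405 in ΔCFIm, against 16819 and 15100 in control. In both genes the ΔCFIm libraries lay on either side of the control libraries. Among the 11 genes of other annotation, *stk-39* (NCU06230) had 22441 and 29684 in ΔCFIm, against 30510 and 29635 in control, *rhd* (NCU06031) had 31908 and 24705 in ΔCFIm, against 26284 and 22764 in control, and *mig-4* (NCU09040) had 12547 and 14272 in ΔCFIm, against 20323 and 17153 in control. Of these, only *mig-4* had no overlap. This group also holds *hex-1*, the gene of the Woronin body protein that plugs septal pores, and the vacuolar protease gene *pep4*.

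The 38 genes with no symbol or informative product held 8.99% and 9.998% of all counts in ΔCFIm, against 9.996% and 10.2% in control. This is more than the listed ribosomal protein genes held in the same library. The tables used gave a product for only 1455 of 7793 genes, so lack of one does not mean that none is known. The group includes NCU02736, for which the study names a yeast homolog in mRNA cleavage and polyadenylation. The sizes of these groups therefore depend on the annotation used. After NCU16635, the highest were NCU06603, with 27806 and 31729 normalized counts in ΔCFIm, against 30053 and 26850 in control, and NCU09734, with 30024 and 17207 in ΔCFIm, against 28940 and 27264 in control. Of the 38, 10 had a log2 fold change above 0 and 28 below, with a median of -0.09, beside 3400 above and 3549 below over all genes tested. Libraries did not overlap for 13 of them, 4 higher and 9 lower in ΔCFIm, beside the same 52.4% of all genes tested (25.9% higher and 26.5% lower).

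**Figure D3:**
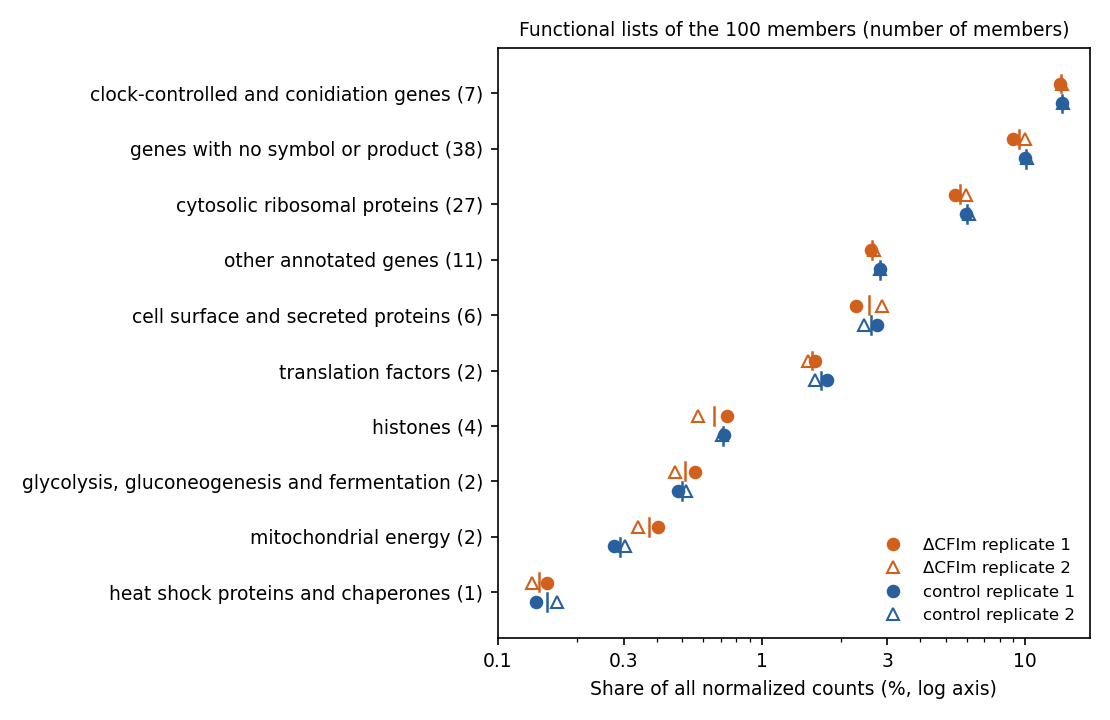
Share of all normalized counts (percent, logarithmic horizontal axis) held by each functional list of the 100 genes, with the number of genes in brackets, 1 point per library, short lines at the genotype means, and ΔCFIm drawn above control. The clock-controlled and conidiation genes lie between 13.6% and 13.9% in all 4 libraries. The 2 mitochondrial energy genes together are higher in both ΔCFIm libraries (0.405% and 0.341%) than in both control libraries (0.277% and 0.304%). The exact permutation p of this share was 0.333, the smallest possible here, and the libraries of *aac*, taken alone, overlapped.

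None of the 100 genes passed the test between genotypes (limma on log2 of the normalized count plus 1, Benjamini-Hochberg adjusted over all 6949 genes tested, threshold 0.05). Over all genes tested, 556 passed, which is 8.0%, of which 321 were higher (4.62%) and 235 lower (3.38%) in ΔCFIm. Without adjustment, 11 of the 100 had a p under 0.05, 4 higher and 7 lower in ΔCFIm, against 22.5% of all genes tested, 11.8% higher and 10.7% lower. Other settings of limma called 0 of the 100 (no trend in the spread) and 0 to 2 (other scalings). Fits with the replicate number as a block, or with a library left out, are given below. Libraries of the genotypes did not overlap for 36 of the 100, 11 higher and 25 lower in ΔCFIm. Among all genes tested, 52.4% did not overlap, 25.9% higher and 26.5% lower. The log2 fold changes of the 100 ran from -0.66 to 0.74 with a median of -0.07, 33 above 0 and 67 below. Over all 6949 genes tested the median was -0.01, with 3400 above 0 and 3549 below. The choice by control level favours values below 0. The median size of the log2 fold change, whatever its sign, was 0.14 for the 100 genes and 0.24 for the others, while the median standard error was 0.20 for both.

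A p above the threshold does not show that a gene was equal in both genotypes. For 94 of the 100 genes, the 95% interval of the fold change lay within 2-fold in either direction, and 84 had mean levels within 1.25-fold. The intervals of *con-8*, *gh13-1*, *poi-2*, *gh6-3*, NCU02744 and *ccg-16* reached past 2-fold. By level, 0 of the 100 highest genes passed, against 2.0% of the genes ranked 101 to 200, 7.0% of those ranked 201 to 500 and 8.0% of those ranked 501 to 1000. These ranks are by the control mean, which keeps genes abundant only in ΔCFIm out of the highest 100. Chosen by the mean of all 4 libraries or by the ΔCFIm mean, 2 of the 100 highest passed.

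**Figure D4:**
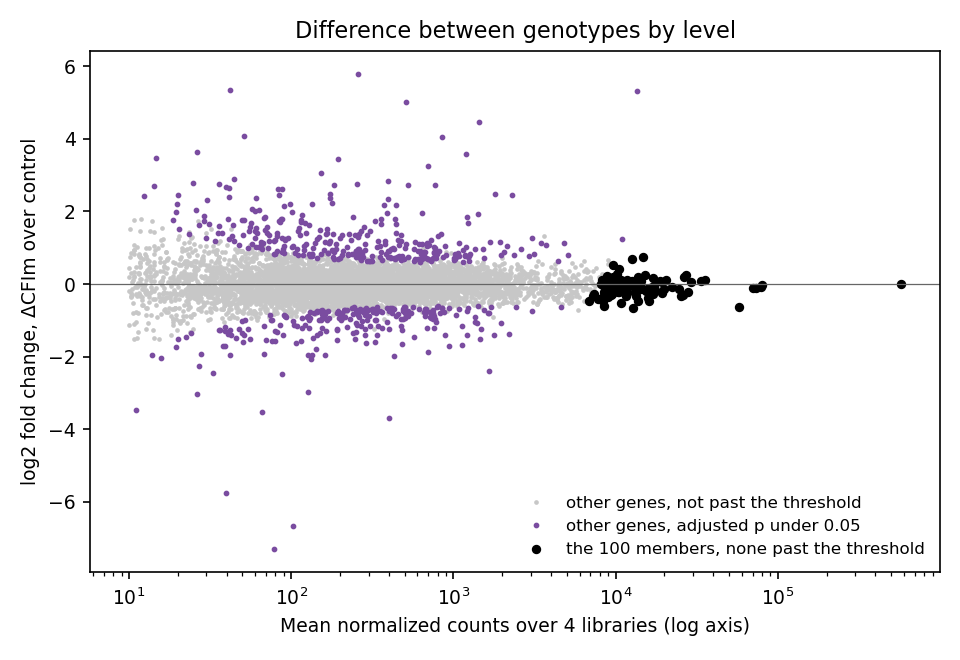
Log2 fold change of ΔCFIm over control (vertical axis) against the mean of normalized counts over 4 libraries (logarithmic horizontal axis) for all 6949 genes tested. The 100 genes, in black, lie between -0.66 and 0.74, and the genes past the threshold, in purple, reach both higher and lower values.

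The 11 genes with an unadjusted p under 0.05 are given next. Those outside the rule for named genes (NCU02744, *gh13-1*, NCU08502, *gh6-3*, *ccg-16*, NCU03738 and *al-1*), and *poi-2*, *hH3*, *ccg-15*, *hex-1* and *pep4* elsewhere, were picked with their values already known. NCU02744, which encodes ribosomal protein L9 of the large subunit, came nearest to the threshold, with 6487 and 6951 normalized counts in ΔCFIm, against 10448 and 10176 in control. The log2 fold change was -0.62 ± 0.18 (SE, n = 2 each, limma adjusted p = 0.0528). The glycoside hydrolase gene *gh13-1* (NCU08131) had 8045 and 12004 in ΔCFIm, against 14564 and 16474 in control, a log2 fold change of -0.66 ± 0.22 (SE, limma adjusted p = 0.0907). Both genes had ΔCFIm libraries below the control libraries. NCU02744 was at -0.57 without ΔCFIm replicate 1 and at -0.67 without ΔCFIm replicate 2. *gh13-1* was at -0.37 without ΔCFIm replicate 1 and at -0.95 without ΔCFIm replicate 2. Such fits leave 1 ΔCFIm library, so only the sizes are given for single genes.

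The ribosomal protein genes NCU08502 (S6) and NCU03738 (S29) were also lower in both ΔCFIm libraries. NCU08502 had 7063 and 7005 normalized counts in ΔCFIm, against 9875 and 9672 in control (log2 fold change -0.47, limma adjusted p = 0.129), and NCU03738 had 11577 and 11693 in ΔCFIm, against 16728 and 15283 in control (log2 fold change -0.46, limma adjusted p = 0.168). For *con-8* the log2 fold change was -0.64 (limma adjusted p = 0.176), for *mig-4* -0.48 (limma adjusted p = 0.172) and for NCU01835 -0.47 (limma adjusted p = 0.178). None of these 5 values passed the threshold. Some of the sizes rest on 1 ΔCFIm library. *con-8* was at -0.28 without ΔCFIm replicate 1 and at -1.004 without ΔCFIm replicate 2. NCU01835 was at -0.70 without ΔCFIm replicate 1 and at -0.24 without ΔCFIm replicate 2. *mig-4* was at -0.57 without ΔCFIm replicate 2.

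Higher values in both ΔCFIm libraries were seen for 4 genes of the 11. The glycoside hydrolase gene *gh6-3* (NCU07190) had 25390 and 12489 normalized counts in ΔCFIm, against 9829 and 11556 in control, and its second ΔCFIm value was close to the control values (log2 fold change 0.74, limma adjusted p = 0.132). It was at 0.23 without ΔCFIm replicate 1 and at 1.25 without ΔCFIm replicate 2. The clock-controlled gene *ccg-16* (NCU05495) had 19341 and 11930 in ΔCFIm, against 11817 and 7405 in control (log2 fold change 0.70, limma adjusted p = 0.134). With a library left out it was 0.35 without ΔCFIm replicate 1, 0.36 without control replicate 2, 1.04 without control replicate 1 and 1.05 without ΔCFIm replicate 2. For *tca-3* the log2 fold change was 0.53 (limma adjusted p = 0.106), and it was 0.65 without ΔCFIm replicate 2. The carotenoid gene *al-1* (NCU00552), which encodes an enzyme of orange pigment synthesis, had 11258 and 12577 in ΔCFIm, against 9519 and 8328 in control (log2 fold change 0.42, limma adjusted p = 0.211).

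Replicates of ΔCFIm differed from each other more than those of control did. The median difference between replicates, on the log2 scale, was 0.21 in ΔCFIm and 0.14 in control over the 100 genes, and 0.24 in ΔCFIm and 0.18 in control over all genes tested. For 70 of the 100 genes the level was higher in ΔCFIm replicate 2 than in replicate 1, against 37.8% of all genes tested, while in control 52 of the 100 were higher in replicate 2, against 49.6% of all genes tested. ΔCFIm replicate 1 was the lowest of the 4 libraries for 52 of the 100 genes, against 23.0% of all genes tested. The genes that differed most between ΔCFIm replicates were *poi-2* (NCU05768), with 4757 and 14151 normalized counts in ΔCFIm, against 9159 and 14924 in control, and then *gh6-3* and *con-10*, whose values are given above. In ΔCFIm replicate 2, 23 of the 27 ribosomal protein genes and 31 of the 38 genes with no symbol or informative product were higher than in replicate 1. None of the 4 histone genes were.

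Calls among the 100 genes changed when 1 ΔCFIm library was left out, in which case the other is assumed to vary like the control libraries. Without ΔCFIm replicate 2, 15 of the 100 passed (3 higher and 12 lower), against 16.3% of all genes tested (9.81% higher and 6.48% lower), and without ΔCFIm replicate 1, 6 passed (all lower), against 10.6% (6.07% lower). NCU02744 was the 1 gene that passed in both cases. The median log2 fold change was -0.12 without ΔCFIm replicate 2 and 0.015 without ΔCFIm replicate 1, so its sign rests on ΔCFIm replicate 1. Without control replicate 1 or control replicate 2, 0 of the 100 passed with limma, and 428 and 333 of all genes tested did. Among the other scalings tried, 2 of the 100 passed with quantile normalization (NCU02744 and *gh13-1*, both lower), against 8.81% of all genes tested (3.81% lower), and 1 passed with scaling to the summed counts of the genes outside the 100 (NCU02744, lower), against 9.38% (4.53% lower).

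**Figure D5:**
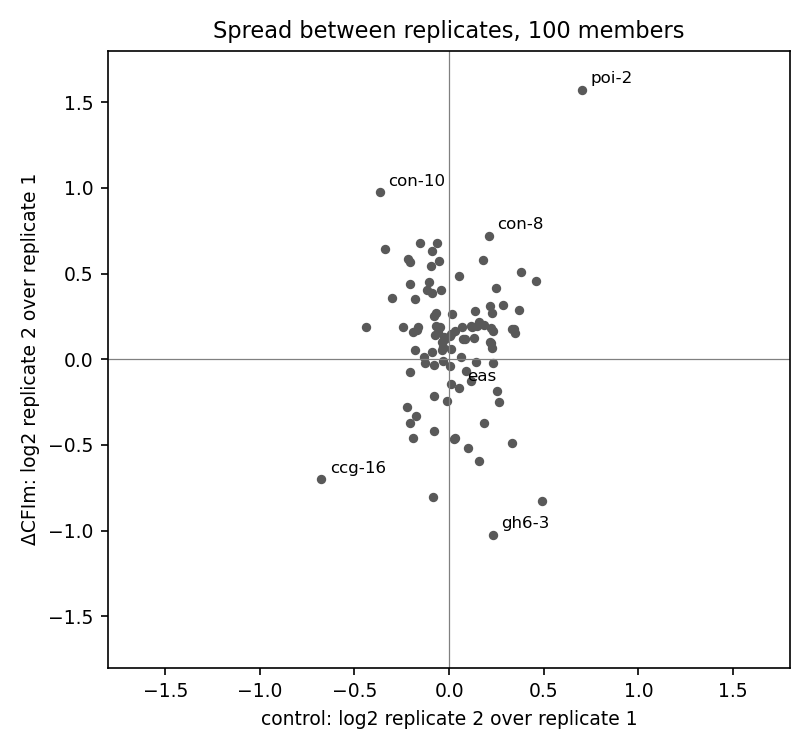
Log2 ratio of replicate 2 over replicate 1 in ΔCFIm (vertical axis) against the same ratio in control (horizontal axis) for the 100 genes, 1 point per gene. Most points lie above the horizontal line at 0 (70 of 100), and *poi-2*, *con-10* and *gh6-3* stand farthest from it.

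The limit of 100 fell in a run of close values. The 5 lowest genes inside it were NCU07273, NCU08949, *tca-3*, NCU03703 (ribosomal protein L17) and NCU01835, with mean control levels of 8051, 8014, 7919, 7906 and 7881 normalized counts. The 5 genes just outside it were NCU08344, NCU01966 (L37), NCU07922 (elongation factor 3), NCU05404 and NCU10498 (L35), with 7811, 7760, 7736, 7650 and 7623. NCU01835, the last gene inside, had 6679 and 4865 normalized counts in ΔCFIm, against 7794 and 7969 in control. The step between the last gene inside and the first outside was smaller than the SD of several of these genes in control, among them NCU07273 at 1711. Chosen by control replicate 1 or control replicate 2 alone, 95 and 97 of the 100 genes would be the same, and chosen by the ΔCFIm mean, 91.

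The 100 genes were short by annotated span. Their median length was 1890 bp (99 with a length, 772 bp for *ccg-1* to 3934 bp for *stk-39*), against 2357 bp for the other 7693 genes. The 99 with a position lay on all 7 linkage groups, with 25 on I, 16 on II, 14 on III, 7 on IV, 19 on V, 4 on VI and 14 on VII, against 25.1%, 10.7%, 12.4%, 15.1%, 16.5%, 9.79% and 10.3% of the table's genes on the same groups. There were 5 pairs of the 100 next to each other in the annotation, with 9 genes in them. The histone genes *hH3* and *hH4-1* lay 1702 bp apart on linkage group II, and *ubi::crp-6* and *crp-5* lay 151 bp apart on linkage group VII (NC12 coordinates II:2874241-2875647, II:2877350-2878740, VII:1462151-1464501 and VII:1464653-1466472). The annotated span of 33 of the 100 genes overlapped another gene, and how reads in such stretches, or reads shared by near-identical copies such as the ubiquitin and histone genes, were counted is not given in the sources used here.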

How the data were processed

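Total RNA from 2 ΔCFIm and 2 control cultures was made into strand-specific 75 bp single-end 3′ End Sequencing libraries. The authors aligned reads to the NC12 genome (FungiDB release 45) with STAR and counted them with HTSeq-count. The deposited values are a signal per gene in which each library's counts are scaled by 1 factor to an equal total of 5852729.5, called normalized counts here. The version and strand setting of HTSeq are not given in the sources used here. Dividing by the value of 1 read gave whole numbers for 100% of values (tolerance 0.001). A count of 3 reads was taken as the floor, and intervals and floors cover counting error only. The table used here lacks 2798 of 10590 RefSeq genes, so the ranks are among its genes. The study gives 7793 as the number of genes with an annotated 3′ UTR, which equals the number of genes in the table. An abundant transcript of a gene outside the table could not be among the 100.

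Libraries were grouped by their labels. The 100 genes of highest control mean were tested with limma (version 3.58.1; lmFit, eBayes with a trend; R version 4.3.3). The fit took log2 of the normalized count plus 1, over all 6949 genes whose mean reached 10, with Benjamini-Hochberg adjustment. Shares were compared by an exact permutation test over libraries. The script was tested on simulated data. Gene symbols and positions come from the RefSeq NC12 annotation, and products from the study's supplementary tables. Lists were made from symbols and products. The rule named the 20 highest genes, up to 10 rises and 10 falls past the threshold (there were 0), the 3 highest genes of each list, the 5 genes on each side of the limit, and *cpsf5*, *cpsf6* and *csr-1*. The 100 genes, the lists and the tests were chosen with earlier results of these data known. Alternatives were pseudocounts of 0.1 and 5, no filter or a mean of at least 50, other scalings, the replicate block, eBayes without a trend, each library left out, and other choices of the genes.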

Additional observations from a re-analysis of the deposited data

How the results depend on the processing

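With the replicate number as a block, 3 of the 100 genes passed (1 higher, *ccg-16*, adjusted p = 0.0154, and 2 lower, NCU02744, adjusted p = 0.0236, and *gh13-1*, adjusted p = 0.0277), and 890 of all genes tested (12.8%, 7.28% higher and 5.53% lower). The libraries share only a number in their labels, and with 2 pairs the deviations of same-numbered libraries correlated with r = 0.137 (Pearson) and rho = 0.160 (Spearman) over 6949 genes, which are not independent. Quantile normalization called 2 of the 100 (NCU02744 and *gh13-1*, 2 lower) and scaling to the counts of all other genes called 1 (NCU02744, 1 lower). With each library left out in turn, 0 to 15 of the 100 passed, 0 to 3 of them higher and 0 to 12 lower, the count over all genes tested ran between 333 and 1132, and the median log2 fold change of the 100 between -0.12 and 0.015. Choosing the 100 genes by the mean of all 4 libraries or by the ΔCFIm mean gave 2 genes past the threshold in each case (2 higher, *mfa-1* and *hgt-1*), and a share difference of -0.249 percentage points for the choice by the ΔCFIm mean, and taking the 200 highest gave 2 (1 higher, 1 lower). The log2 fold change of *eas*, 0.01, was -0.023 with scaling to the other genes and between -0.073 and 0.093 with a library left out. Pseudocounts, filters, median-of-ratios scaling, eBayes without a trend and, added after seeing the data, scaling to totals without *eas* left 0 of the 100 past the threshold. Tests of counts (edgeR and DESeq2) and TMM scaling were not run. The causes were not tested. With 2 libraries per genotype the spread is poorly known, counting error is small beside it (the lowest value of the 100 genes in a library was 4757 normalized counts), and 2 against 2 cannot reach an exact p under 0.333.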

Other observations

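By mean level in ΔCFIm, 9 genes stood among the 100 highest that were not among the 100 highest of control, and they were chosen here after their values had been seen. The largest was *mfa-1* (NCU16992), a mating pheromone precursor gene. It had 19292 and 33258 normalized counts in ΔCFIm, against 677 and 587 in control, which placed it 12th in ΔCFIm and 1544th in control. The ratio of means was 41.6, and the log2 fold change was 5.33 ± 0.23 (SE, n = 2 each, limma adjusted p = 7.05e-08). The mating type gene *matA-1* had 0 reads in both ΔCFIm libraries, against 145 and 166 in control. The sugar transporter gene *hgt-1* (NCU10021) had 15126 and 15465 normalized counts in ΔCFIm, against 7653 and 5532 in control, with a log2 fold change of 1.23 ± 0.20 (SE, n = 2 each, limma adjusted p = 0.00243). Both *mfa-1* and *hgt-1* were higher in ΔCFIm. As *matA-1* reads also separated the strains, that difference and the deletions cannot be told apart for either gene.

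The other 7 were NCU01328, *eif5A*, *bli-3*, *ccg-14*, *ccg-13*, *acw-4* and *emp-7*, none past the threshold, and their control ranks ran from 108 to 131. The clock-controlled gene *ccg-14* (NCU07787) came nearest, with 9911 and 12014 normalized counts in ΔCFIm, against 7492 and 6333 in control (log2 fold change 0.66, limma adjusted p = 0.0533). NCU01328 had 10933 and 10523 in ΔCFIm, against 7138 and 7503 in control (log2 fold change 0.55, limma adjusted p = 0.0817). The 9 genes that left were NCU01835, *hH2A*, NCU02744, NCU03988, NCU06110, NCU07273, NCU07345, NCU08502 and NCU08949, with ΔCFIm ranks from 101 to 149.

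Among the genes ranked 101 to 200 in control, 2 passed the threshold. These were *hgt-1* and NCU01057 (taurine dioxygenase-2), which had 3954 and 3308 normalized counts in ΔCFIm, against 5502 and 5741 in control, with a log2 fold change of -0.64 ± 0.18 (SE, n = 2 each, limma adjusted p = 0.0449).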
